A study of Mus musculus with 42 samples.

Results

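The measurements described here are the 6 liver libraries that were made with the SMARTer Stranded kit, out of 42 libraries in the series, and the comparison is between ribosome-bound RNA (IP) and whole-tissue RNA (input) in each gene and each cell type. All libraries came from 3 mice of the genotype Gfi1Cre/+;Rpl22HA/HA, so that both fractions carry the same alleles and the groups differ only in how the RNA was taken. Input is RNA extracted from a portion of each liver, and IP is RNA of the ribosomes pulled down from another portion with an antibody against the HA tag. The stage label gives pups of day 1, while the growth protocol gives day 30, which is also the age in the methods. Members were chosen by the kit name in the labels and by the fraction, with 3 libraries in each fraction, and each kit input was 4 ng of RNA.

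In the RiboTag method, Cre recombinase switches the ribosomal protein gene Rpl22 to a form that ends in an HA tag, and the antibody then recovers ribosomes with the mRNAs they carry. Gfi1 is a transcription factor of blood cells, and the knock-in places Cre under that gene, so the tag marks cells that express Gfi1 or descend from cells that did. Blood cells of the liver include resident macrophages (Kupffer cells), circulating leukocytes and, in the young animal, blood precursors, while hepatocytes make up most of the tissue. The SMARTer chemistry primes cDNA at random positions without poly(A) selection and removes ribosomal RNA sequences after the first amplification, so it also records RNAs that lack a poly(A) tail.

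The library labelled input replicate 3 is compared here as IP, and the library labelled IP replicate 3 as input. The study's own table of detected features carries these libraries under the opposite fraction names. With the fractions as labelled, limma called 0 genes (76 genes had an unadjusted p under 0.05) and edgeR called 0 (107 had an unadjusted p under 0.05), and with the exchange both called the genes counted below. Below, values are listed in the order of replicates 1, 2 and 3, where the third value of each fraction comes from the exchanged library. Values that leave out the exchanged pair are given where they change a count.

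The libraries held between 30252348 and 49823890 mapped reads, and between 22783 and 29814 genes had an RPKM above 0. Spearman correlations across genes ranged from 0.890 to 0.917 between input libraries, from 0.876 to 0.889 between IP libraries and from 0.589 to 0.669 between fractions. The replicate 2 pair stood apart in ribosomal RNA, since genes over rRNA repeats took 31.3% of the reads on genes in input and 26.4% in IP, against 5.99 to 7.86% in the other 4 libraries. The deposited RPKM values count reads over the whole gene body, introns included and both strands together. They were scaled per library by a median ratio and are called scaled RPKM below. A low pre-mRNA signal in long introns therefore enters the level of a gene, and antisense or overlapping genes share reads.

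Across all genes, 8001 had a mean scaled RPKM of at least 0.5 and were tested with limma on log2(scaled RPKM + 0.5), a scale that understates the change of low genes. After Benjamini-Hochberg adjustment, 2347 genes (29.3%) were higher in IP and 1878 (23.5%) were lower, around a median log2 change of 0.039. Without the library labelled input replicate 3 the genes called lower numbered 1189, and without the exchanged pair 1751 were higher and 1094 lower. On the RPKM as deposited, which were not rescaled, 949 were higher and 445 lower. Of the genes called, 1170 changed upward and 842 downward by at least 2-fold, and 369 changed upward by at least 4-fold. The 3 IP values lay wholly above the 3 input values in 2749 genes (34.4%) and wholly below in 2257 (28.2%). The second test, edgeR on reads recovered from the RPKM values, reached 19534 genes and called 3969 (20.3%) higher and 4206 (21.5%) lower. Its scale lies lower than that of limma by a median of 0.42 log2 units over well-measured genes, so changes of that size can differ in sign between the tests. Counts of list members below are read against these shares.

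Hepatocyte genes were lower in IP. Of 24 hepatocyte markers, 22 fell by limma, none rose, and their median log2 change was -1.90, and by edgeR 23 fell with a median of -2.36. Their summed level was 4601, 5449 and 4594 scaled RPKM in input and 1055, 956 and 780 in IP. In 22 of the 24 genes every IP library lay below every input library, against 28.2% of the 8001 tested genes. Over all 32603 genes with a value above 0, which include many low genes, the share was 10.4%.

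Albumin (Alb), the main plasma protein, stood at 1280, 1509 and 1369 scaled RPKM in input and at 222, 225 and 212 in IP. The fractions did not overlap, and the log2 change was -2.65 (SE 0.151, adjusted p = 0.000105, limma). The fibrinogen alpha chain Fga, a clotting protein, had 122, 129 and 131 in input and 25.1, 25.4 and 27.0 in IP, a log2 change of -2.28 (SE 0.125, adjusted p = 9.8e-05, limma). Apolipoprotein A2 (Apoa2), a carrier of plasma lipids, had 907, 1281 and 1083 in input and 216, 181 and 127 in IP, a change of -2.66. Of 8 adult liver genes 6 were tested by limma and all 6 fell, and by edgeR 6 of 7 fell. Cyp1a2, a cytochrome P450 that oxidizes drugs, had 62.4, 70.5 and 59.4 in input and 11.1, 14.2 and 9.95 in IP. Cyp7b1, a P450 of sterol metabolism, was under 0.05 in every library and did not pass by edgeR (change 0.59, adjusted p = 0.221).

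A pair of hepatocyte markers did not pass by limma. G6pc, the last enzyme of glucose release, had 11.7, 12.5 and 13.4 scaled RPKM in input and 17.2, 14.2 and 20.1 in IP, so that each IP library lay above each input library, but the change of 0.43 did not pass (adjusted p = 0.0671, limma) and was 0.03 by edgeR (adjusted p = 0.909). Pck1, which feeds gluconeogenesis, ranged from 29.97 to 106 across the input libraries and its change of -1.79 narrowly missed the limma threshold (adjusted p = 0.0523) while passing by edgeR (adjusted p = 0.00379) and by limma with the mouse as a block (adjusted p = 0.00200). Hnf4a, a transcription factor of hepatocytes, fell less than the secreted proteins, by 0.58 on the log2 scale (adjusted p = 0.00412, limma). The body of Hnf4a overlaps other genes over part of its length, and the part of their reads in its level was not tested.

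**Figure D1:**
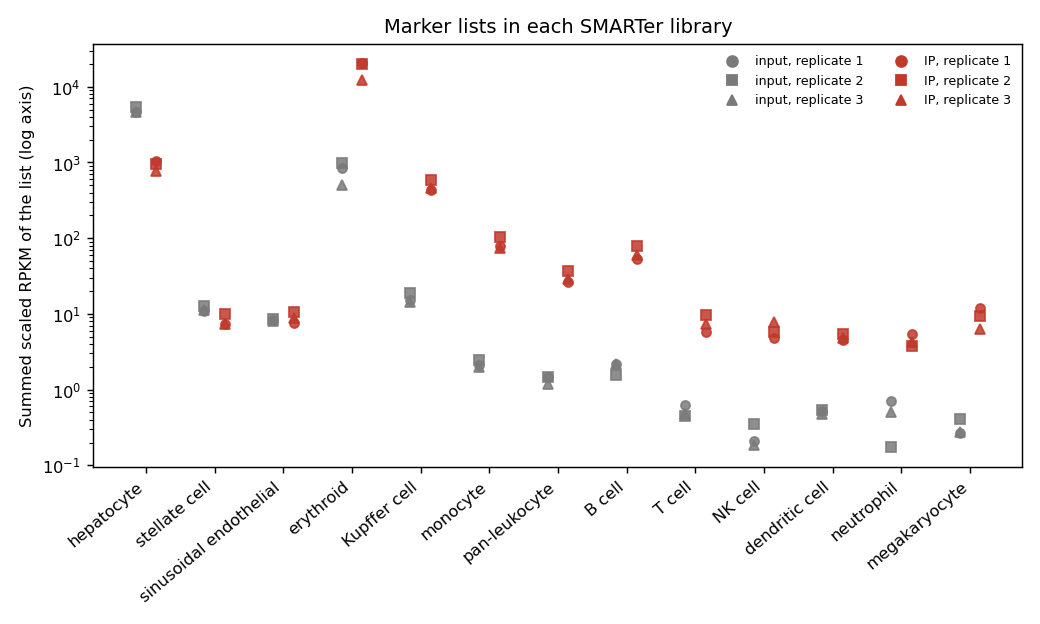
Summed scaled RPKM (log axis) of each marker list in the 6 SMARTer libraries, with input in grey, IP in red and 1 symbol per replicate, the exchanged pair being replicate 3. Hepatocyte markers lie between 4594 and 5449 in input and between 780 and 1055 in IP, while Kupffer cell markers lie between 14.3 and 18.8 in input and between 437 and 585 in IP.

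Kupffer cell genes were higher in IP. Of 15 Kupffer cell markers, 14 were tested by limma and all 14 rose, with a median log2 change of 4.36, and by edgeR all 15 rose with a median of 4.41. Their summed level was 15.3, 18.8 and 14.3 scaled RPKM in input and 437, 585 and 464 in IP. All 15 had the 3 IP values above the 3 input values, against 34.4% of the tested genes and 27.3% of all genes with a value above 0. Both fractions came from portions of the same livers, so these changes describe the RNA that the pull-down recovered. They do not measure the number of Kupffer cells or the RNA per cell.

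Clec4f, a lectin that marks Kupffer cells in mice, had 2.42, 2.71 and 2.15 scaled RPKM in input and 75.5, 101 and 81.0 in IP. Its log2 change was 4.88 (SE 0.161, adjusted p = 5.42e-05, limma), and the gene lies on chromosome 6 from 83644542 to 83656187 on the minus strand (GRCm38). C1qb, a chain of the complement protein C1q, had 1.26, 1.87 and 1.30 in input and 45.9, 60.4 and 46.8 in IP, a change of 4.71. The other C1q chains C1qa and C1qc rose by 4.62 and 4.61. Cd5l, a secreted macrophage protein, rose by 4.62 and Csf1r, the receptor for the macrophage growth factor CSF1, by 4.56.

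For genes with long introns the limma scale was compressed. Adgre1, which encodes the macrophage antigen F4/80, had 0.0435, 0.0476 and 0.0474 scaled RPKM in input and 0.980, 1.24 and 1.001 in IP, and its log2 change was 1.52 by limma but 4.11 by edgeR (adjusted p = 5.97e-07). Marco, a scavenger receptor, changed by 2.77 and 5.02 in the same order. Spic, a transcription factor of red pulp macrophages and Kupffer cells, was under the limma minimum, and edgeR gave a rise of 3.80 (adjusted p = 0.00023).

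The promoters of both lists are shown because most of their members changed, in opposite directions between the lists. Promoter sequences came from RefSeq (GRCm38.p6), which held 12 of the 15 Kupffer cell genes and 20 of the 24 hepatocyte genes. On both strands of the 250 bases before the start, 9 letter strings were searched. GGAAGT, the ETS core that the myeloid factor PU.1 can bind, was found in 8 of 12 Kupffer cell genes and 4 of 20 hepatocyte genes. It was found in 5 of 10 genes shared by leukocytes, in 22.2% of all genes and in 19.7% of all 32851 promoters. GTTAAT, a core that HNF1 factors can bind, was found in 6 of 20 hepatocyte genes and 1 of 12 Kupffer cell genes, against 7.49% of all genes and 6.43% of all promoters. The hepatocyte genes with this core include G6pc, whose change was upward and did not pass. Windows of 70 bases follow, read 5′ to 3′ on the strand of the gene, with the matching letters or their reverse complement in capitals. The first 4 are Kupffer cell genes with the ETS core.
Clec4f, chr6:83656117-83656186, minus strand: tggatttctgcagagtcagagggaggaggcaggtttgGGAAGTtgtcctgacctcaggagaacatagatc
C1qb, chr4:136886214-136886283, minus strand: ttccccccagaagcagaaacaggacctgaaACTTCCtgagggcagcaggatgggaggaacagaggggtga
Timd4, chr11:46810697-46810766, plus strand: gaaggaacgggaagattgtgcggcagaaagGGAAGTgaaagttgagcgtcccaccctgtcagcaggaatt
Vsig4, chrX:96293462-96293531, minus strand: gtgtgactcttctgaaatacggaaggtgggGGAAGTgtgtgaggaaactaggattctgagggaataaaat
The last 3 are hepatocyte genes with the HNF1 core.
Alb, chr5:90460800-90460869, plus strand: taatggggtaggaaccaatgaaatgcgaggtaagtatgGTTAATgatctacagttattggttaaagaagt
Fga, chr3:83026080-83026149, plus strand: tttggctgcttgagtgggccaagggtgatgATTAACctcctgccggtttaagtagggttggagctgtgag
Hnf4a, chr2:163547051-163547120, plus strand: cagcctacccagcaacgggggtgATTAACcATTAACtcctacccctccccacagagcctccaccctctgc
Starts are those of RefSeq, and the windows of Clec4f and Hnf4a lie inside the longer gene bodies of the annotation used for the levels. In Clec4f the core starts 33 bases before the RefSeq start, and in Alb 32 bases before it. In Hnf4a the HNF1 core occurs at a pair of places, 81 and 74 bases before that start. Timd4, a phosphatidylserine receptor of resident macrophages, rose by 2.04, and Vsig4, a complement receptor, by 2.67. A match is a description of the letters in these windows. Binding was not measured, and a link of matches to the changes between fractions was not tested. The remaining strings were also read on both strands of the same windows. AGATAA, which erythroid zinc finger factors can bind, occurred in 4 of 11 erythroid genes with a promoter, 4 of 20 hepatocyte genes and 11.4% of all genes. TTGCNNAA, a loose site of C/EBP factors, occurred in 8 of 20 hepatocyte genes and 10.8% of all genes. Its stricter form TTGCGCAA (0.164% of promoters), the HNF4 site CAAAGTCCA (0.384%) and the full palindromic HNF1 site (0.00913%) occurred in none of the hepatocyte promoters. GAGGAAGT, which contains the ETS core, occurred in 1 of 12 Kupffer cell genes (2.44% of promoters), and CCACACCC, the KLF1 box, in 1 of 11 erythroid genes (3.20%).

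Genes of other blood cells were also higher in IP, at lower levels. Most were under the limma minimum, so the counts for them are from edgeR. All 8 monocyte markers and all 10 NK cell markers rose, as did 14 of 17 T cell markers, 10 of 13 B cell markers and 8 of 9 dendritic cell markers. Of 14 neutrophil markers 10 could be tested and 8 rose, and of 12 markers shared by leukocytes all 12 rose. The median log2 changes lay between 3.66 for T cells and 4.92 for monocytes. No marker of these lists passed in the downward direction.

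Lyz2, the lysozyme of monocytes and macrophages, had 1.87, 2.24 and 1.85 scaled RPKM in input and 74.9, 96.3 and 69.2 in IP. Its log2 change of 5.01 (SE 0.167, adjusted p = 5.42e-05, limma) came second by limma among protein-coding genes after the globin gene Hba-x. The macrophage gene Mpeg1, which encodes a pore-forming protein, followed with 1.72, 1.81 and 2.23 in input and 61.8, 84.1 and 72.1 in IP, and Cd74 and H2-Ab1 of antigen presentation rose by 4.81 and 4.64. By edgeR Lyz2 rose by 4.91 and H2-Ab1 by 5.14, so the order differs between the tests. Lyz2 and Mpeg1 are known from Kupffer cells too, so they do not separate the myeloid types.

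Among B cell genes, the immunoglobulin heavy chain Ighm had 0.282, 0.322 and 0.141 scaled RPKM in input and 8.37, 12.7 and 9.58 in IP, a rise of 3.83 (adjusted p = 7.84e-05, limma). Igkc, the kappa light chain constant region, rose by 4.61, but its body lies within another annotated gene and the reads cannot be assigned between them. Cd79b, part of the B cell receptor, had 0, 0.0151 and 0.0107 in input, which are 0, 1 and 2 recovered reads, and 1.54, 1.84 and 1.79 in IP, which are 206, 132 and 417 reads.

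T cell and NK cell markers were lower still. The T cell receptor constant region Trbc2 had 0.108, 0.0318 and 0.102 scaled RPKM in input and 1.67, 3.44 and 1.84 in IP, a rise of 2.23 (adjusted p = 0.000717, limma). Cd8a had no read in any input library and 56, 26 and 118 reads in IP, at least 52.6-fold higher against a floor of 3 reads over the input libraries. Granzyme B (Gzmb), which cytotoxic cells release, rose from 0.0233, 0.136 and 0.0108 to 1.05, 1.91 and 2.67, a change of 2.04 by limma and 5.12 by edgeR.

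Neutrophil granule genes gave few reads. Ngp had none in input and 78, 14 and 80 in IP, at least 45.3-fold higher on the same floor, and Ltf and Camp likewise had none in input. S100a9, a calcium-binding protein of neutrophils and monocytes, had 0.0771, 0 and 0.0356 scaled RPKM in input and 1.43, 1.19 and 1.28 in IP, a rise of 1.74 (adjusted p = 0.000128, limma). Elane, Mmp8, Prtn3 and Retnlg had too few reads for either test. With the genes that lack input reads set at their floor, the neutrophil median by edgeR went from 4.41 to 4.05, the erythroid from 3.91 to 3.90 and the megakaryocyte from 5.02 to 4.73.

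The markers shared by leukocytes rose with them. Ptprc, which encodes CD45, had 0.0432, 0.0467 and 0.0421 scaled RPKM in input and 0.912, 1.31 and 0.901 in IP, with changes of 1.49 by limma and 4.14 by edgeR. Coro1a, an actin regulator of leukocytes, had 0.0932, 0.122 and 0.0938 in input and 4.11, 4.55 and 4.44 in IP, a rise of 3.01. Actb, the cytoskeletal actin gene, rose as well, from 78.8, 83.4 and 72.3 to 406, 514 and 449, a change of 2.53 (SE 0.160, adjusted p = 0.000132, limma).

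**Figure D2:**
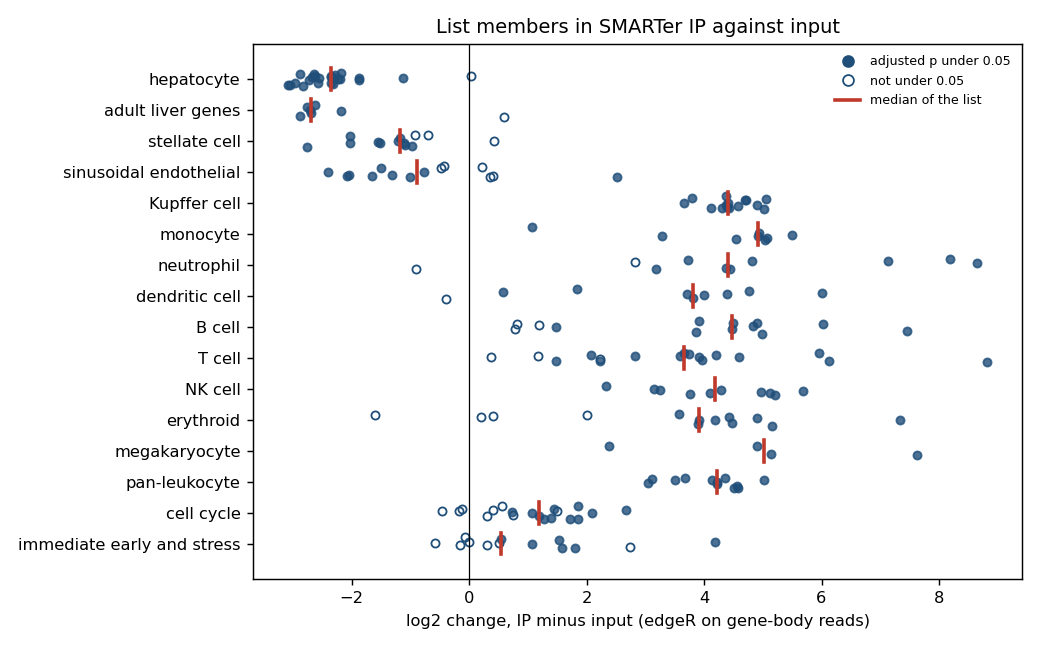
Log2 change between IP and input by edgeR on gene-body reads for each list member that could be tested, with filled circles for an adjusted p under 0.05 and a red bar at the list median. Genes with no input read, such as Cd8a and Ngp, lie far to the right at positions that depend on the added prior count. Hepatocyte and adult liver genes lie left of 0 apart from G6pc and Cyp7b1, and all Kupffer cell, monocyte, NK cell and shared leukocyte markers lie right of 0.

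Erythroid RNA was the most abundant of the marker lists in IP. The summed level was 844, 992 and 511 scaled RPKM in input and 20478, 20244 and 12332 in IP, and nearly all of it was adult globin. The beta globin gene Hbb-bs, on chromosome 7 from 103826534 to 103828096 on the minus strand (GRCm38), had 132, 174 and 86.3 in input and 4667, 3896 and 2647 in IP. Its log2 change was 4.85 (SE 0.341, adjusted p = 0.000167, limma), and the alpha globin gene Hba-a1 rose by 4.33. The alpha and beta globin genes each have a near-identical copy, so reads may be divided between copies.

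Beyond globin, Alas2, the first enzyme of erythroid haem synthesis, had 0.654, 0.579 and 0.385 scaled RPKM in input and 8.38, 11.2 and 6.14 in IP, a rise of 3.09 (adjusted p = 0.000199, limma). The body of Alas2 lies within another annotated gene. The band 3 anion exchanger Slc4a1 rose by 5.16 by edgeR. Klf1, a transcription factor of erythroid precursors, had 0.198, 0.291 and 0.163 in input and 0.114, 0.0991 and 0.0698 in IP, and its change of -1.60 did not pass (adjusted p = 0.0535, edgeR). In all, 9 of 13 erythroid markers rose by edgeR and none fell.

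The embryonic globin gene Hba-x had the largest rise by limma among protein-coding genes, 5.08 (SE 0.508, adjusted p = 0.000529, limma), on 78, 0 and 0 reads in input and 2774, 608 and 1860 in IP. Among genes that do not encode proteins, Hbb-bh3, a beta globin pseudogene, rose most, from 3.94, 3.26 and 2.57 scaled RPKM to 181, 161 and 80.1. Reads of the abundant globin genes may be divided with these copies. Of 7 megakaryocyte and platelet markers 4 could be tested by edgeR and all 4 rose. Pf4, a platelet chemokine, had 0.184, 0.326 and 0.0386 in input and 10.1, 7.34 and 4.66 in IP, a rise of 3.49 (adjusted p = 0.000303, limma).

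Most markers of stellate and sinusoidal endothelial cells were lower in IP by edgeR. Of 14 sinusoidal endothelial markers 8 fell and 1 rose by edgeR, with a median of -0.88, and by limma 5 were tested, of which 2 fell and 2 rose. The vascular growth factor receptor Kdr had 0.480, 0.561 and 0.458 scaled RPKM in input and 0.132, 0.151 and 0.203 in IP, a fall of 2.05 on the log2 scale by edgeR. The lectin Clec4g and the hyaluronan receptor Lyve1 fell by 2.41 and 2.07.

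Cdh5, the VE-cadherin of endothelial junctions, went the other way. It had 0.544, 0.549 and 0.5002 scaled RPKM in input and 2.999, 5.48 and 3.91 in IP. The change was 2.13 (SE 0.201, adjusted p = 0.000429, limma) and 2.52 by edgeR (adjusted p = 9.18e-06), and no other annotated gene overlaps its body. The Fc receptor Fcgr2b, which B cells and macrophages also express, was the other marker called higher by limma (0.42, adjusted p = 0.0151), and it did not pass by edgeR (adjusted p = 0.252).

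Of 13 stellate cell markers 10 fell by edgeR and none rose, with a median of -1.18. Decorin (Dcn), a matrix proteoglycan, had 0.754, 0.784 and 0.687 scaled RPKM in input and 0.139, 0.141 and 0.162 in IP, a fall of 2.75 on the log2 scale (adjusted p = 1.03e-06, edgeR). By limma 2 of the 5 tested fell and 1 rose, which was Hand2, a transcription factor (0.66, adjusted p = 0.0432), and most of its body is shared with another annotated gene. Of 7 bile duct (cholangiocyte) markers 4 could be tested and 2 fell, Sox9 and Spp1.

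**Figure D3:**
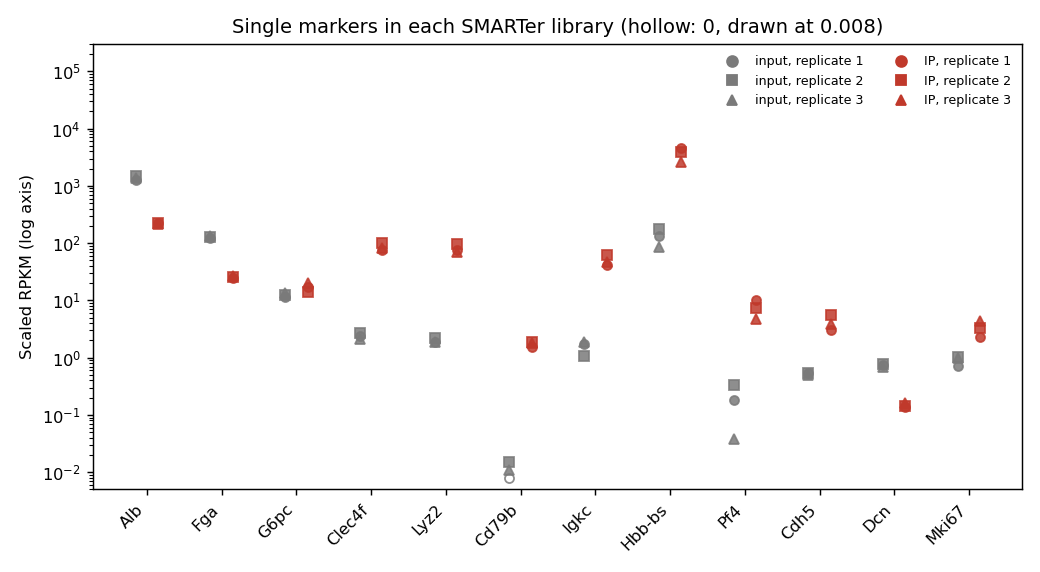
Scaled RPKM (log axis) of 12 markers in each SMARTer library, with input in grey and IP in red, and a hollow symbol at 0.008 standing for a value of 0 (Cd79b, input replicate 1). Cdh5 lies between 0.5002 and 0.549 in input and between 2.999 and 5.48 in IP, while Dcn lies between 0.687 and 0.784 in input and between 0.139 and 0.162 in IP.

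Gfi1 itself was at 0 reads in all 3 input libraries and at 7, 14 and 21 reads in IP, which was too little for either test. A count of 0 allows up to 3 reads over the input group, by counting error alone. Of 21 transcription factors of blood cells 18 could be tested by edgeR and 11 rose, with a median of 1.99, and none fell. Spi1, which encodes PU.1 of myeloid and B cells, had 0.0943, 0.0820 and 0.0802 scaled RPKM in input and 1.48, 1.93 and 1.57 in IP, a change of 1.88 by limma and 3.84 by edgeR. Irf8, a factor of monocytes and dendritic cells whose body is wholly shared with another annotated gene, rose by 2.26 and 4.01 in the same order, and Runx3 by 3.96 by edgeR. Gata1, Gfi1 and Gfi1b were not tested, and Tal1, Nfe2 and Gata2 did not pass.

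Progenitor markers were less uniform. Of 8, 3 rose by edgeR (Cd34, Cd48 and Myb), 1 fell (Meis1), and Kit, the stem cell factor receptor, had 0.0499, 0.0600 and 0.0437 scaled RPKM in input and 0.0503, 0.0548 and 0.0695 in IP (change -0.23, adjusted p = 0.452). Of 8 fetal liver genes H19, an imprinted non-coding RNA, was the only 1 tested by limma and rose by 1.73 (adjusted p = 0.0119), from 0.662, 0.928 and 0.988 to 3.0003, 7.90 and 2.57. Igf2, the growth factor beside H19, rose by 3.66 by edgeR, while alpha-fetoprotein (Afp) was under 0.11 in every library and fell by 1.45.

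RNA of the mitochondrial genome fell in IP. Mitochondrial ribosomes translate it within the organelle and do not contain Rpl22. All 13 protein-coding genes of the mitochondrial genome were lower in IP by both tests, with a median log2 change of -3.56 by limma and -3.98 by edgeR, and both mitochondrial rRNA genes and 20 of 22 mitochondrial tRNA genes were lower. The mitochondrial rRNAs took 7.19, 3.90 and 7.78% of the reads on genes in input and 0.372, 0.252 and 0.478% in IP, a 17.1-fold difference of the means (6.29 ± 2.09% and 0.367 ± 0.113%, SD, n = 3). The mitochondrial mRNAs took 1.86 ± 0.674% in input and 0.206 ± 0.0782% in IP, a 9.01-fold difference.

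The fall was not of the same size in each gene. mt-Atp8, a small subunit of ATP synthase at positions 7766 to 7969 of the mitochondrial genome, had 1684, 1726 and 1725 scaled RPKM in input and 53.5, 91.2 and 58.5 in IP, a log2 change of -4.69 (SE 0.236, adjusted p = 7.96e-05, limma). mt-Nd1, a subunit of complex I at positions 2751 to 3707, had 1183, 1158 and 1261 in input and 359, 498 and 424 in IP, a change of -1.50 (SE 0.181, adjusted p = 0.00109, limma). The other 11 lay between -1.83 (mt-Nd3) and -4.50 (mt-Atp6). mt-Nd6, a complex I subunit and the protein encoded on the opposite strand from the rest, fell by 3.95 on the log2 scale. Among the tRNA genes the fall ran from 4.43 for mt-Tk down to 0.19 for mt-Th and 0.03 for mt-Ts2, the pair that did not pass. Genes of this genome lie end to end, so reads at a border count for both neighbours.

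**Figure D4:**
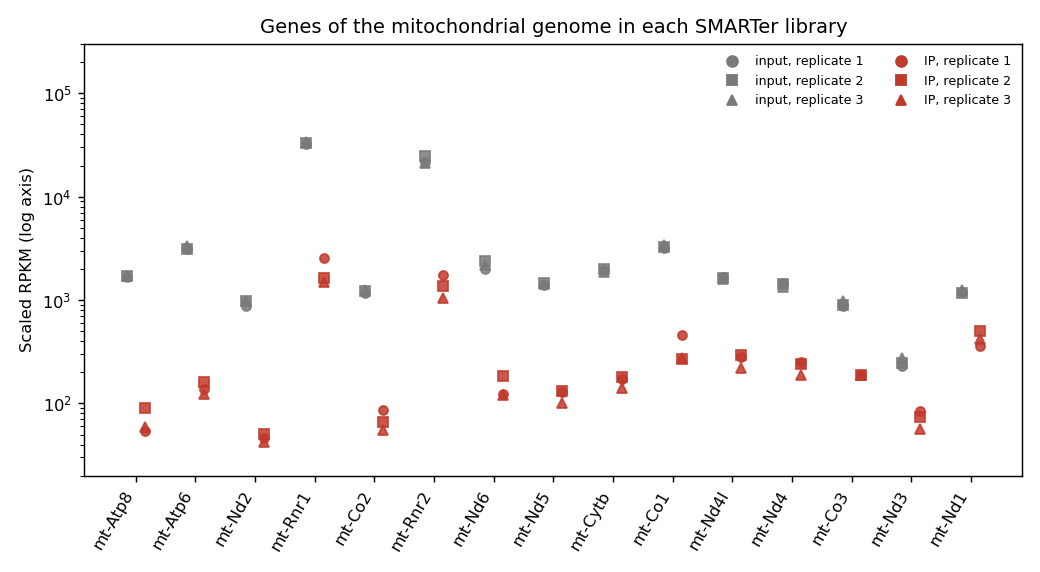
Scaled RPKM (log axis) of the 13 protein-coding and 2 rRNA genes of the mitochondrial genome in each SMARTer library, ordered from the largest fall (mt-Atp8) to the smallest (mt-Nd1), with input in grey and IP in red. Every IP value lies below every input value of the same gene, and the gap is narrowest for mt-Nd1.

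The largest falls among genes that do not encode proteins were those of Gm13339 (-4.74), Gm10925 (-4.51), Gm13341 (-4.40), mt-Rnr1 (-4.17) and Gm28661 (-4.15). Gm13339 had 154, 212 and 163 scaled RPKM in input and 4.91, 8.70 and 5.21 in IP. All of these apart from mt-Rnr1 are annotated as unprocessed pseudogenes. In input, Gm28661 had 49854, 16308 and 46628 recovered reads, the same numbers as mt-Co2. Gm10925 had 132931, 40895 and 124204, against 133043, 40947 and 124334 for mt-Atp6. The falls of these pseudogenes cannot be told apart from those of the mitochondrial genes.

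Replication-dependent histone mRNAs, which end in a stem-loop in place of a poly(A) tail and are made in S phase, were higher in IP. Of 65 genes 61 were tested by limma, 57 rose and 1 fell, with a median log2 change of 1.70. By edgeR 55 of 62 rose and 1 fell, with a median of 1.32. In 59 of the 65 genes every IP library lay above every input library, against 34.4% of the tested genes and 27.3% of all genes with a value above 0. The families moved together, since the medians were 1.92 for H1 (5 of 5 rose), 1.92 for H2A (16 of 18), 1.92 for H3 (12 of 12), 1.42 for H4 (12 of 12) and 1.16 for H2B (12 of 14).

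The linker histone gene Hist1h1b had 3.46, 3.89 and 5.50 scaled RPKM in input and 21.6, 19.5 and 31.2 in IP, a change of 2.36 (SE 0.242, adjusted p = 0.000581, limma). Hist1h3d, an H3 gene, had 2.75, 4.33 and 4.42 in input and 18.5, 20.4 and 24.5 in IP, a change of 2.33. The gene that fell was Hist1h2bc (-0.78, adjusted p = 0.0422, limma, and 0.0844 with the mouse as a block), whose annotated body of several kilobases is longer than a single histone coding unit. Many histone genes are near-identical and may share reads.

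Cell cycle genes rose less. Of 19, 11 rose by edgeR and none fell, with a median of 1.18. Mki67, a protein of dividing cells, had 0.716, 1.01 and 0.984 scaled RPKM in input and 2.30, 3.30 and 4.35 in IP, a change of 1.41 (SE 0.221, adjusted p = 0.00291, limma). Pcna, the sliding clamp of DNA replication, rose by 1.40, and the replicative helicase subunits Mcm3 and Mcm5 by 2.10 and 2.67 by edgeR. Ccnb1, Ccnb2 and Tyms did not pass. Of 13 immediate early and stress genes 6 rose by edgeR, among them Dusp1 (1.81), Junb (1.52) and Fos (4.19), while the heat shock genes Hspa1a and Hspa1b did not pass and ranged from 1.13 to 6.54 across the IP libraries.

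Cytosolic ribosomal protein genes were slightly lower in IP, and the number called depended on the scale. Of 88 protein-coding genes caught by symbol, some of which are named for similarity or binding only, 83 were tested by limma, 33 fell and 1 rose, with a median of -0.49. By edgeR 65 fell and none rose, with a median of -0.99. Rpl32, a large subunit protein, had 9.50, 8.13 and 10.2 scaled RPKM in input and 4.85, 3.94 and 4.44 in IP, a change of -0.99 (SE 0.137, adjusted p = 0.00183, limma). Rps3, of the small subunit, was the gene that rose by limma (0.46, adjusted p = 0.047, and 0.0585 with the mouse as a block), and by edgeR its change was 0.05 (adjusted p = 0.844). Without the exchanged pair 9 fell by limma, and without the replicate 2 pair 12 fell. On the RPKM as deposited none fell by limma, and with libraries scaled to the same sum 2 fell.

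The gene that carries the tag, Rpl22, had 3.95, 4.58 and 4.65 scaled RPKM in input and 3.42, 2.14 and 1.83 in IP, a change of -0.76 (SE 0.212, adjusted p = 0.026, limma, and 0.0524 with the mouse as a block). All mice are Rpl22HA/HA and the reads over the gene body do not tell the tagged from the untagged transcript, so this level does not measure recombination. Its paralogue Rpl22l1 did not pass (-0.47, adjusted p = 0.183). Gapdh, a glycolytic enzyme often used as a reference gene, had 4.70, 4.49 and 9.64 in input and 2.08, 2.26 and 3.19 in IP, a fall of 1.11 on the log2 scale (adjusted p = 0.027, limma).

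Of 14 small structural RNAs without a poly(A) tail that were tested by limma, 2 rose, 3 fell and 9 were not called. Over all genes tested 29.3% rose and 23.5% fell. Rn7sk, which holds back transcription elongation, had 2970, 3399 and 2731 scaled RPKM in input and 1193, 696 and 587 in IP, a change of -1.94 (SE 0.300, adjusted p = 0.00283, limma). Rmrp, the RNA of RNase MRP, had 343, 423 and 294 in input and 2024, 1819 and 787 in IP, a change of 2.03 (SE 0.399, adjusted p = 0.00705, limma). Rpph1, the RNA of RNase P, rose by 1.42 (adjusted p = 0.00783, limma). Other annotated genes overlap most of the bodies of both Rmrp and Rpph1. The signal recognition particle RNA Rn7s1 ranged from 14869 to 31768 in input and from 5555 to 15420 in IP and did not pass by limma (adjusted p = 0.0991), but did with the mouse as a block (adjusted p = 0.00684). Malat1, a nuclear RNA, had 93.9, 120 and 142 in input and 109, 103 and 150 in IP, so that the fractions overlapped (change 0.02, adjusted p = 0.945).

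Kcnq1ot1, a nuclear antisense RNA of an imprinted region, rose by 1.79 (adjusted p = 0.000103, limma), from 0.162, 0.134 and 0.159 scaled RPKM to 1.84, 1.87 and 1.55. Its body lies wholly within that of the gene on the other strand, and since the RPKM values ignore strand the transcripts cannot be told apart. This overlap touches most short RNAs. Of 342 miRNA genes that were tested 74 rose and 25 fell by limma, but 314 (91.8%) had at least 0.9 of their body inside other genes, including 66 of the 74 and all 25. Of 151 snoRNA genes 141 (93.4%) lay inside others, against 360 of 4601 protein-coding genes (7.82%). Reads of a short RNA and of the gene around it cannot be told apart in these values. Among the largest rises of genes that do not encode proteins were those of Gm26716 (4.52), annotated as antisense, and of the lincRNAs Gm26917 (4.497) and Gm26778 (4.03). The bodies of Gm26716 and Gm26778 lie wholly within other genes. Gm26917, which is counted above among the genes over rRNA repeats, had 89.99 and 101 scaled RPKM in IP replicates 1 and 2. In the exchanged library it had 575.

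Introns entered the level of most nuclear protein-coding genes. Of 320 tested genes without introns 138 rose (43.1%) and 32 fell (10%), with a median log2 change of 0.48. With 0 to 50%, 50 to 80%, 80 to 90% and 90 to 95% introns the medians were 0.10, 0.16, 0.06 and -0.17. Of 111 genes whose body is over 95% introns 26 rose (23.4%) and 39 fell (35.1%), with a median of -0.06. By length, gene bodies over 100 kb had a median of 0.17 and those under 5 kb of 0.0075. The group without introns includes the histone genes.

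The same RNA was also prepared with TruSeq at 70 ng (TruSeq70), which selects poly(A) RNA, and with NuGEN at 4 ng, which does not. NuGEN replicate 3 was exchanged in the same way as SMARTer, and TruSeq70 was compared as labelled. An interaction term tested whether the change between IP and input differed between kits, and both comparisons use the same 6 SMARTer libraries. The kits of a pair were scaled together, so SMARTer changes there differ slightly from those above. Against TruSeq70, 459 of 10113 genes (4.54%) had a higher change with SMARTer and 165 (1.63%) a lower one by limma, while edgeR gave the opposite split of 161 (0.729%) and 381 (1.72%) of 22091. Against NuGEN, limma gave 119 (1.26%) and 72 (0.764%) of 9418, and edgeR gave 7 (0.0347%) and 3 (0.0149%) of 20201.

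Among the classes compared with TruSeq70, the histone genes held the largest share of members that differed by limma. Their median change was 1.70 with SMARTer and 0.22 with TruSeq70, and 21 of 62 genes had a higher change with SMARTer by limma and 7 by edgeR. Hist1h1b changed by -0.10 with TruSeq70, a difference of 2.44 by limma that did not pass by edgeR (adjusted p = 0.297). With TruSeq70 the H2B genes had a median of -0.81 and the H3 genes of 0.88. With NuGEN the histone median was 0.83 against 1.61 with SMARTer on that scale, and 4 of 60 genes had a higher change with SMARTer by limma and 1 by edgeR. With the libraries of 1 number left out at a time, between 1 and 7 histone genes were called higher than with TruSeq70, and 0 than with NuGEN.

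Mitochondrial and ribosomal protein genes also differed in some members. By edgeR 12 of 83 ribosomal protein genes and 1 of 13 mitochondrial mRNAs had a lower change than with TruSeq70, and 2 mitochondrial mRNAs a higher one. The median change of the 13 mitochondrial mRNAs was -4.21 with TruSeq70 and -2.91 with NuGEN. mt-Nd4l and mt-Nd5 fell less with SMARTer than with TruSeq70, by 2.32 and 1.61 log2 units, and mt-Nd6 fell more, by 1.30. Ribosomal protein genes had a median change of 0.14 with TruSeq70 and of -0.33 with NuGEN, and 6 of 83 had a lower change with SMARTer than with TruSeq70 by both tests, among them Rps23 (difference -1.14) and Rpl29 (-1.03). No ribosomal protein gene differed from NuGEN by limma.

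Between kits, cell type markers differed in a few members of some lists. Of the markers shared by leukocytes 3 of 10 differed from TruSeq70 by limma (Cd52 and Coro1a lower, Ptprc higher) and 3 of 9 from NuGEN (Cd53 lower, Fermt3 and Ptpn6 higher), with no common direction by limma. From NuGEN both neutrophil genes compared were lower (S100a8 and S100a9), and of both dendritic cell genes compared Irf8 was higher and Xcr1 lower. Of the blood transcription factors Spi1 and Irf8 were the ones compared and both were higher. By edgeR none of these genes passed against NuGEN. Against TruSeq70 edgeR called 2 of 12 shared leukocyte markers and 2 of 20 blood transcription factors lower and none higher. Over all genes the shares were 1.72% lower and 0.729% higher. A lower change was also called for 1 Kupffer cell, 1 T cell, 1 erythroid and 1 sinusoidal endothelial marker. A higher change was called for 1 adult liver gene. No hepatocyte marker differed from either kit by edgeR, and by limma Hnf4a differed from TruSeq70 (0.78, adjusted p = 0.0316). C1qa rose by 4.57 with SMARTer and by 1.70 with NuGEN, a difference of 2.87 (adjusted p = 0.00343, limma) that passed both tests, while its partner C1qb rose by 4.19 with NuGEN. Cd52, a leukocyte surface protein, rose by 3.22 with TruSeq70 and less with SMARTer (difference -1.32, adjusted p = 0.00231, limma), again by both tests. Kcnq1ot1 changed by 0.10 with TruSeq70, a difference of 2.12 (adjusted p = 8.54e-05, limma) that was not called by edgeR (-0.13, adjusted p = 0.866).

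**Figure D5:**
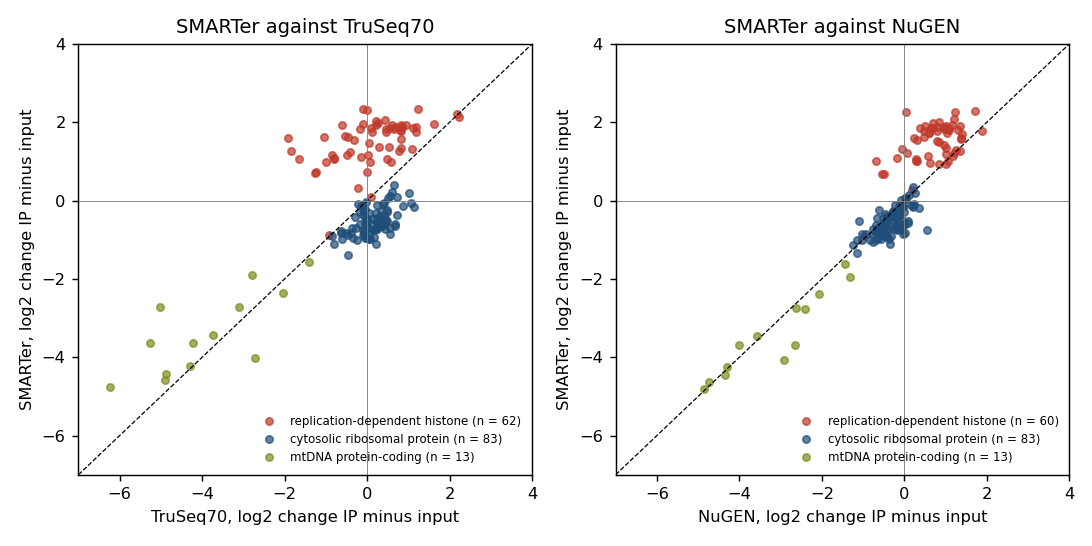
Log2 change between IP and input with SMARTer (vertical axis) against that with TruSeq70 (left) and NuGEN (right) for histone, ribosomal protein and mitochondrial protein-coding genes, where the dashed line marks the same change with both kits. Histone genes, with medians of 1.70 and 0.22, lie above the line against TruSeq70 and closer to it against NuGEN.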

How the data were processed

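RNA was measured in liver of 3 mice, with input and IP of each mouse prepared by several kits. Per the study's methods, the authors trimmed the paired reads, aligned them with TopHat to GRCm38 and deposited a table of exon counts and a table of RPKM values for each library. The deposited RPKM values were read as reads over the whole gene body, on both strands, scaled for gene length and for mapped reads. RPKM multiplied by gene span (GENCODE, GRCm38) and by mapped reads gave a whole number, within 0.02, for 89.9 to 91.0% of low genes with introns, against 3.66 to 4.10% with the exon length. The test design had assumed RPKM over exons, and limma was kept as the main test. Gene names and positions were matched for 98.9% of 47729 genes. The deposited exon counts left 76.8 to 93.8% of the counted reads on no feature and served only as an alternative.

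RPKM values were scaled by the median ratio to the geometric mean library (factors 0.58 to 1.71). Genes with a mean of at least 0.5 were tested on log2(value + 0.5) with limma 3.58.1 (trend, two-sided, in R 4.3.3), Benjamini-Hochberg adjusted over all genes tested, with a threshold of 0.05. Recovered gene-body reads were tested with edgeR 4.0.16 (quasi-likelihood, TMM), a test added after the data were seen. These fits were also run on simulated data, drawn at a fixed spread and without a shift in ribosomal RNA between libraries. Error rates in the real libraries are not known from that run. Kits were compared by an interaction term, which was run on simulated data of the same kind, with the same limit. Alternatives left out each replicate, blocked by mouse, and changed the scaling, filter, pseudocount and value.

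Replicates are separate mice, and same-numbered libraries share a mouse. Within numbers 1, 2 and 3 the deviations of input and IP from their fraction means correlated by 0.23, 0.22 and 0.33. Intervals and floors cover counting error only, since reads carry no molecular identifiers. Depth was 30252348 to 49823890 mapped reads, of which exon counts made up 464199 to 762562. Marker lists and RNA classes were chosen with earlier results of these data known. Named genes are Gfi1, Gapdh, Rpl22, Rpl22l1, list members, and the 10 protein-coding and 5 other genes with the largest called rise and fall, with exons of at least 200 bases and fractions that do not overlap. Other class members were chosen after their values were seen.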

Additional observations from a re-analysis of the deposited data

Results flagged for a closer look

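The results below were singled out because the change between IP and input differed between kits by an interaction test. Against TruSeq70, 459 genes had a higher and 165 a lower change with SMARTer by limma, and 161 and 381 by edgeR. Against NuGEN the counts were 119 and 72 by limma and 7 and 3 by edgeR. The tests differ in values, scaling and model together, and the part of each in the opposite splits was not tested.

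By limma 21 histone genes were higher than with TruSeq70 and 4 higher than with NuGEN. Those named by both tests against TruSeq70 were Hist1h2bf (3.11), Hist1h2bg (2.71), Hist1h2bk (2.69), Hist2h2aa1 (1.97), Hist2h2aa2 (1.98), Hist2h3c1 (1.76) and Hist2h3c2 (2.53), where the value is the log2 change with SMARTer minus that with TruSeq70. Against NuGEN it was Hist1h2bg (1.70). Hist1h1a (2.33) and Hist1h1b (2.44) passed against TruSeq70 by limma only, and neither passed by edgeR (adjusted p = 0.999827 and 0.297). With TruSeq70 the change of Hist1h1a was -7.35e-16, so its difference is the SMARTer change itself. Several of these genes are near-identical copies that may share reads.

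Ribosomal protein genes with a lower change than with TruSeq70 numbered 6, namely Rpl12 (-1.12), Rpl24 (-1.01), Rpl29 (-1.03), Rps23 (-1.14), Rps27l (-0.91) and Rps19bp1 (-1.41), and the last pair is named for similarity or binding. Of the mitochondrial protein-coding genes 2 were higher than with TruSeq70, mt-Nd4l (2.32) and mt-Nd5 (1.61), and 1 was lower, mt-Nd6 (-1.30). Of the mitochondrial tRNA genes 2 were higher and 1 lower than with TruSeq70, and 1 was higher and 3 lower than with NuGEN. By both tests these were mt-Tp (2.42) and mt-Tt (3.27) against TruSeq70, and mt-Tp (1.91) and mt-Tk (-3.33) against NuGEN.

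Among cell type genes, Cd52 (-1.32) passed both tests against TruSeq70 and C1qa (2.87) against NuGEN. By limma alone the difference from TruSeq70 was 0.78 for Hnf4a, -1.81 for Nkg7, 1.38 for Slc4a1, 0.63 for Fcgr2b, -0.86 for Coro1a, 1.05 for Ptprc and 2.12 for Kcnq1ot1. From NuGEN it was -1.10 for S100a9, -1.78 for S100a8, -1.66 for Cd3e, -0.88 for Xcr1, -0.98 for Cd53, 1.73 for Fermt3, 1.25 for Ptpn6, 0.99 for Irf8 and 1.01 for Spi1. Ptprc and Nkg7, which both mark leukocytes, have opposite signs by limma only. By edgeR the differences were -0.48 for Ptprc and -0.31 for Nkg7, and neither passed.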

How the results depend on the processing

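Counts of genes higher and lower in IP (2347 and 1878) were 0 and 0 with the fractions as labelled, 949 and 445 on the RPKM as deposited, 1105 and 1080 when scaled to the sum over protein-coding genes, 4836 and 1795 without a filter, 831 and 1146 with a mean of at least 2, 582 and 529 on exon counts with edgeR, and 886 and 716 for genes with introns under 0.5 of the body. Gene-body reads with edgeR gave 3969 and 4206, and with the mouse as a block 4308 and 4522. The replicate block in limma gave 2339 and 1908, and pairing by mouse changed 4 to 2 histone genes against NuGEN, 5 to 28 snRNA genes called higher (2 to 23 by edgeR), 3 to 6 small structural RNAs called lower, 1 to 2 nuclear long non-coding RNAs called higher, 2 to 1 genes of the RiboTag check called lower, and the single ribosomal protein gene called higher and histone gene called lower to 0. Leaving out 1 library gave 1930 to 2287 higher and 1189 to 1798 lower, the last falling to 1189 without the library labelled input replicate 3. Without both libraries numbered 3 the counts were 1751 and 1094, and without both numbered 2 they were 1857 and 1270.

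With the fractions as labelled no hepatocyte, Kupffer cell, erythroid, mitochondrial, histone or ribosomal protein gene was called (0 in each). Without the pair numbered 3, 19 hepatocyte and 13 mitochondrial genes fell, and 13 Kupffer cell, 5 erythroid and 55 histone genes rose. With introns under 0.5 of the body, few list members are tested, and 1 hepatocyte, 2 Kupffer cell, 2 erythroid and 19 ribosomal protein genes were called. Erythroid genes called higher (5) numbered 8 without a filter, 2 on exon counts, 9 on gene-body reads and 10 with the block. On exon counts, which leave most reads on no feature, 7 mitochondrial genes fell, 0 histone genes rose and 0 ribosomal protein genes fell, and Hbb-bt (-0.23), Hbb-bs (-0.034) and Hba-a1 (-0.17) reversed. Rpl22 reversed to 0.0045 with the fractions as labelled. Histone genes called higher numbered 34 on the RPKM as deposited and 54 to 58 with 1 library left out. Ribosomal protein genes called lower (33) numbered 12 to 37 with 1 library left out, 9 without the pair numbered 3, 12 without the pair numbered 2, 0 on the RPKM as deposited, 2 when scaled to the sum, 65 on gene-body reads and 72 with the block.

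Differences between kits moved with most settings. Against TruSeq70 (459 and 165) the counts were 1 and 2 as labelled, 64 and 146 on the RPKM as deposited, 514 and 187 with the replicate block, 777 and 334 with a pseudocount of 2, 161 and 381 with edgeR, and 31 to 107 and 18 to 36 without the libraries of 1 number. Against NuGEN (119 and 72) they were 0 and 0, 8 and 41, 120 and 67, 353 and 231, 7 and 3, and 0 to 3 and 0 to 5 in the same order. Histone genes higher than with TruSeq70 (21) numbered 0 as labelled, 2 as deposited, 41 with a pseudocount of 2, 7 with edgeR and 1 to 7 without the libraries of 1 number. Those higher than with NuGEN (4) numbered 0, 0, 30, 1 and 0 in the same order. The causes of these moves were not tested. Over 97 named genes, 1942 of 2111 recomputed values kept direction and side of the threshold, 134 no longer passed, 31 newly passed and 4 reversed. With 3 libraries a fraction, and reads shared among overlapping genes, small changes of low genes and of short RNAs inside other genes stay below what these data resolve.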
